A study of Homo sapiens with 12 samples.

Results

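The miR-34 and miR-449 family is described here by 7 mature microRNAs (miRNAs): hsa-miR-34a-5p, hsa-miR-34a-3p, hsa-miR-34b-5p, hsa-miR-34b-3p, hsa-miR-34c-5p, hsa-miR-34c-3p and hsa-miR-449a, written below without the species prefix. They were taken by name from a table of 2588 mature human miRNAs, and all 7 were found in it. The libraries were small RNA libraries of MDA-MB-231, an established cell line from a human triple-negative breast cancer, and of the extracellular vesicles (EVs) pelleted from its medium. All 3 derived lines were grown in 10% fetal bovine serum. They then conditioned medium without serum, but with 1% bovine serum albumin, for 24 h. The control line carried an empty lentiviral vector (control cells and control EVs). The Rab27a KD line carried a lentiviral short hairpin RNA from a single construct against RAB27A, a Rab GTPase needed for vesicle-laden endosomes to dock for secretion. The miR-122 KO line was edited at the miR-122 gene by CRISPR-Cas9 with 2 guide RNAs, and the labels state no vector or non-targeting guide for it. Each of the 6 groups had 2 libraries. Whether the numbered libraries of a group were separate cultures is not stated. The p-values therefore reflect the spread between these libraries, which may be technical.

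Mature miRNAs are short RNAs cut from either arm (5p or 3p) of a hairpin precursor. Loaded into an Argonaute protein, they pair with messenger RNAs mainly through the seed near their 5′ end. The miR-34 members are known to repress cell cycle and survival genes such as MET, CDK6 and BCL2. miR-34b, miR-34c and the miR-449 cluster are best known for high levels in multiciliated cells, where they promote formation of motile cilia.

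Mature sequences were taken from RefSeq (GRCh38.p14), which matched 6 of the 7 members, all but miR-34c-5p. The 5p members are shown first because their seeds define the family. Capitals mark the seed, bases 2 to 8 from the 5′ end. The first 3 share 1 seed:
miR-34a-5p: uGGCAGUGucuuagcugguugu
miR-449a: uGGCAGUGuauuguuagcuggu
miR-449b-5p: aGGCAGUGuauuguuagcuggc

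In the next 3 the same letters start later by a single base, so the seed reads AGGCAGU in place of GGCAGUG:
miR-34b-5p: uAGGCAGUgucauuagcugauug
miR-449c-5p: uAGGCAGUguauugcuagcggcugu
miR-2682-5p: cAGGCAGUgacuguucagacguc

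No other miRNA in the RefSeq table held either of these seeds. miR-34c-5p was absent from that table, so its seed was not compared and these lists do not place it. miR-449b-5p, miR-449c-5p and miR-2682-5p are not among the 7 members and are given as relatives. miR-449a and miR-449b-5p differed by an edit distance of 2 and shared a run of 20 bases, the closest pair. miR-34a-5p and miR-34b-5p differed by 4 edits, and their longest shared run was 9 bases. How reads that match several miRNAs were counted is not given in the sources used here, so close relatives may share reads. None of the 7 members had counts identical to another entry.

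The 3p arms are shown because their share of the counts of both arms is given for cells and for EVs. Each had a seed of its own in the table, and miR-34b-3p and miR-34c-3p shared a run of 10 bases:
miR-34a-3p: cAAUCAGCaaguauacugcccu
miR-34b-3p: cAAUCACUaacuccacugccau
miR-34c-3p: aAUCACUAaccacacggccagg

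The miR-34a hairpin, whose 5p arm changed most, lies at chr1:9151668-9151777 on the minus strand (GRCh38.p14), in an exon of the long noncoding RNA MIR34AHG in GENCODE. Its 110 bases are shown with both mature arms in capitals:
MIR34A hairpin: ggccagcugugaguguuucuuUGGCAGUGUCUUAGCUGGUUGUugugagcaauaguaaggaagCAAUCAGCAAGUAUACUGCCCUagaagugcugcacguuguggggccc

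The miR-34b hairpin at chr11:111512938-111513021 and the miR-34c hairpin at chr11:111513439-111513515 lie 417 bases apart on the plus strand. Both lie within the RefSeq spans of MIR34BHG and BTG4, and no host gene was found for either in GENCODE. MIR449A lies at chr5:55170532-55170622 on the minus strand, in an intron of CDC20B, and MIR449B lies 23 bases from it. The count table carries no coordinates.

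Total counts ran from 164656 to 11840597 per library. In the knockdown EVs, the group with the least depth, a single count stood for 6.07 and 5.87 CPM (counts scaled to a common library total). miR-122-5p, the target of the knockout, had 5 and 4 counts in control cells, 39 and 40 in knockdown cells and none in either knockout cell library. Control EVs held 790 and 651 counts of it, knockdown EVs 7 and 5, and knockout EVs 4 and 3. RAB27A is a protein-coding gene and was not measured. The list of 6 miRNAs typical of mesenchymal breast lines summed to 490201 to 709090 CPM in each library, and the 7 epithelial ones to 131 to 431 CPM. Of the 6 mesenchymal ones, miR-31-5p was at 0 in all 6 cell libraries and in the knockdown and knockout EVs, and miR-100-5p, miR-21-5p and miR-221-3p had the highest mean CPM in every group. A list of 8 blood-cell miRNAs summed to 9867 to 11503 CPM in control EVs and to 110 to 285 CPM in all other libraries. A list of 6 stromal miRNAs summed to 3352 to 3468 CPM in control EVs and to 9.74 to 115 CPM elsewhere. The blood marker miR-223-3p was at 0 in all cell libraries and in the knockdown EVs, and the stromal marker miR-199a-3p was at 0 in the knockdown EVs.

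The family was a small part of each library and was made up mostly of miR-34c-5p and miR-34a-5p. The 7 members together reached 1577 CPM ± 41.3 (SD, n = 2) in control cells, 544 ± 12.4 in knockdown cells and 743 ± 72.4 in knockout cells. The EV groups lay close to each other, at 824 ± 46.9 in control EVs, 824 ± 19.9 in knockdown EVs and 720 ± 48.1 in knockout EVs. Control cells thus held the family at a higher summed level than any other group, with no overlap between their libraries and those of the others. Levels are compared between groups for each member. Ligation-based libraries capture different sequences unequally, so an order between members is an order of counts.

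**Figure D1:**
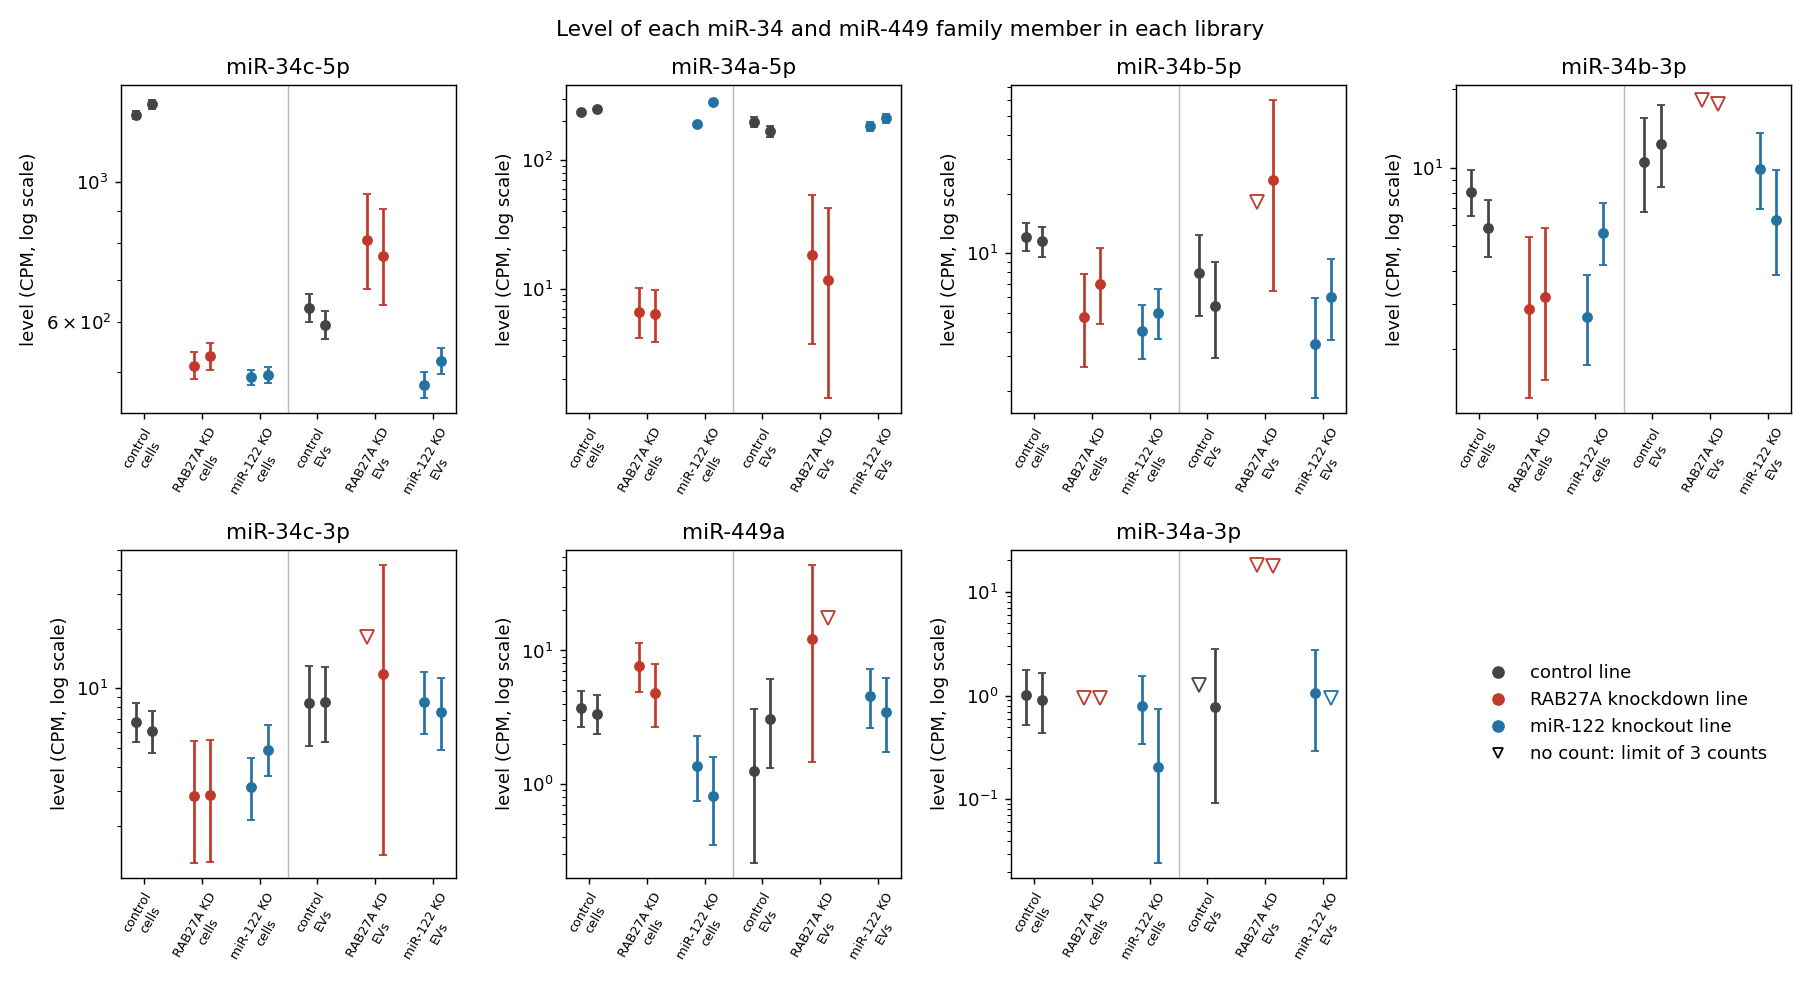
Level of each member (CPM, log axis) in each library, by group. Points are libraries with 95% exact Poisson intervals, and open triangles stand at 3 counts where a library had none. miR-34c-5p lies between 476 and 1329 CPM in every library, while miR-34a-5p drops to 6.37 to 18.2 CPM in the 4 libraries of the Rab27a KD line.

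miR-34a-5p, the member encoded alone on chromosome 1, was nearly lost from the Rab27a KD line. Its counts were 2823 and 2758 in control cells, 21 and 20 in knockdown cells, and 1930 and 2792 in knockout cells. The knockdown cells stood far below both other lines, whose libraries overlapped. These counts gave 244 CPM ± 7.64 (SD, n = 2) in control, 6.51 ± 0.197 in knockdown and 237 ± 66.5 in knockout cells. By edgeR's quasi-likelihood test, miR-34a-5p was 37.0-fold lower in knockdown cells, a log2 fold change of −5.21 (SE 0.20, adjusted p = 2.13e-14).

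In EVs the Rab27a KD line was again far below both other lines. miR-34a-5p had 473 and 436 counts in control EVs, 3 and 2 in knockdown EVs, and 687 and 670 in knockout EVs. With so few counts in the knockdown EVs, the ratio of pooled CPM was 0.0818 with an exact binomial 95% interval of 0.0265 to 0.192. The edgeR log2 fold change was −3.73 (SE 0.42, adjusted p = 9.33e-06). Relative to knockdown EVs, miR-34a-5p was higher in knockout EVs (log2 fold change 4.21, SE 0.40, adjusted p = 2.28e-06 by edgeR), as it was in knockout against knockdown cells (5.49, SE 0.20, adjusted p = 3.99e-15). Without molecular identifiers, such intervals and limits reflect counting error alone.

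Between the miR-122 KO line and the control line, miR-34a-5p differed little, and the sign depended on the scaling. In cells the log2 fold change was 0.28 (SE 0.14, adjusted p = 0.0813 by edgeR) with TMM factors and −0.04 with total counts (adjusted p = 0.851). Without knockout cell replicate 1 it was 0.35 and passed. The 2 knockout cell libraries differed from each other more than either differed from the control libraries on average, at 190 and 284 CPM. In EVs the log2 fold change was 0.48 (SE 0.14, adjusted p = 0.0157 by edgeR), but 0.11 with total counts (adjusted p = 0.551). That call was also lost with DESeq2 and without either control EV library, knockdown EV replicate 2 or knockout EV replicate 2.

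The 6 groups ordered by level of miR-34a-5p were control cells, knockout cells, knockout EVs, control EVs, knockdown EVs and knockdown cells. The first 4 groups did not separate from their neighbours, because the knockout cell libraries spanned the control cells and the EV ranges overlapped. Knockdown EVs, at 18.2 and 11.7 CPM, lay above knockdown cells, at 6.65 and 6.37 CPM. The counting interval of their ratio, 2.29 with bounds of 0.707 and 5.80, included 1.

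miR-34c-5p, the most counted member and a product of the locus on chromosome 11, was lower in the cells of both derived lines. Control cells held 15123 and 14706 counts (1303 CPM ± 36.5, SD, n = 2). Knockdown cells held 1613 and 1660 counts (520 CPM ± 12.8), and knockout cells 4979 and 4855 (492 CPM ± 2.78). Both derived lines lay below the control libraries without overlap. By edgeR the log2 fold change was −1.31 in knockdown cells (SE 0.12, adjusted p = 1.94e-08) and −1.06 in knockout cells (SE 0.12, adjusted p = 2.21e-07). Both comparisons use the same control libraries. The 2 derived lines did not differ by this test (knockout against knockdown, 0.25, SE 0.12, adjusted p = 0.0764), and with total counts the difference was −0.08.

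In EVs the level of miR-34c-5p differed less between lines. Control EVs held 1507 and 1540 counts (612 CPM ± 27.0, SD, n = 2), knockdown EVs 133 and 130 (785 CPM ± 31.6), and knockout EVs 1787 and 1645 (498 CPM ± 30.8). On the CPM scale the 3 EV groups did not overlap, with knockdown EVs highest. With TMM factors neither line passed the edgeR test against control EVs. The log2 fold changes were 0.24 for knockdown (SE 0.14, adjusted p = 0.177) and 0.08 for knockout (SE 0.12, adjusted p = 0.666). With total counts both passed and the knockout changed sign, at 0.36 (adjusted p = 0.0448) and −0.30 (adjusted p = 0.0483). Total-count scaling moved the median of all tested miRNAs by 0.12 and −0.38 in these 2 comparisons.

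By CPM, the order of groups for miR-34c-5p was control cells, knockdown EVs, control EVs, knockdown cells, knockout EVs and knockout cells. The last 3 groups did not separate: the knockout EV libraries, at 476 and 519 CPM, overlapped the range of the knockdown cells and enclosed the knockout cells.

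The balance of miR-34a-5p to miR-34c-5p within a library does not depend on any scaling. miR-34a-5p made up 15.7% and 15.8% of their summed counts in the 2 control cell libraries. The share was 1.29% and 1.19% in knockdown cells and 27.9% and 36.5% in knockout cells. In control EVs it was 23.9% and 22.1%, in knockdown EVs 2.21% and 1.52%, and in knockout EVs 27.8% and 28.9%. In neither fraction did the lines overlap. Within the control line the EV share, 23.0% pooled (95% exact Clopper-Pearson interval 21.7% to 24.3%), lay above the cell share of 15.8% (15.4% to 16.1%). In the miR-122 KO line the pooled EV share was 28.3%, inside the range of the knockout cell libraries.

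**Figure D2:**
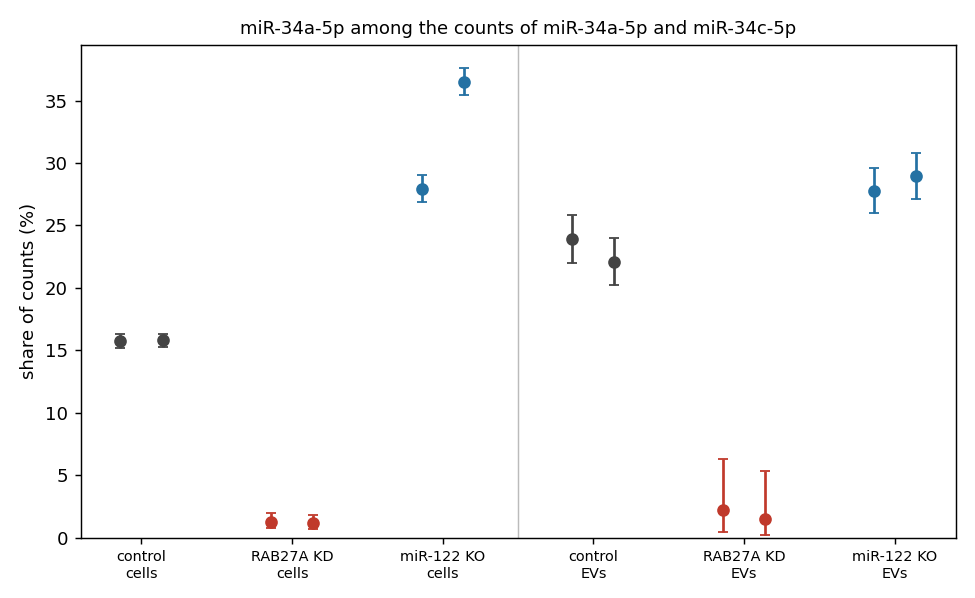
Share of miR-34a-5p in the summed counts of miR-34a-5p and miR-34c-5p (%), by group. Points are libraries with exact Clopper-Pearson 95% intervals, and both fractions of the Rab27a KD line sit at 1.19% to 2.21%, against 15.7% or more in all other libraries.

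The low members of the chromosome 11 locus were lower in knockdown cells too. miR-34b-5p, which shares the shifted seed shown above with miR-449c-5p, had 144 and 127 counts in control cells, 15 and 22 in knockdown cells and 41 and 49 in knockout cells. Its level fell from 11.8 CPM ± 0.485 (SD, n = 2) in control cells to 5.88 ± 1.60 in knockdown and 4.51 ± 0.671 in knockout cells, with no overlap with control. The edgeR log2 fold changes were −0.99 (SE 0.29, adjusted p = 0.00664) and −1.05 (SE 0.24, adjusted p = 8.49e-04). As a share of the counts of miR-34b-5p and miR-34c-5p, the neighbouring 5p arms, miR-34b-5p kept to a narrow pooled range, 0.900% in control cells, 1.12% in knockdown and 0.907% in knockout cells. The pooled EV shares were 1.07%, 1.50% and 0.924% in the same order of lines, and the knockdown value rested on 4 counts.

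miR-34b-3p had 95 and 65 counts in control cells, 9 and 10 in knockdown cells and 27 and 55 in knockout cells. miR-34c-3p had 80 and 67, 9 and 9, and 32 and 48. The knockdown cells were lowest in CPM for miR-34c-3p, while for miR-34b-3p a knockout library lay below them. By edgeR miR-34b-3p was lower in knockdown cells by a log2 fold change of −1.19 (SE 0.39, adjusted p = 0.0159) and miR-34c-3p by −1.15 (SE 0.36, adjusted p = 0.0121). With DESeq2 the calls of miR-34b-5p, miR-34b-3p and miR-34c-3p in knockdown cells were lost, with adjusted p-values of 0.0577, 0.102 and 0.0986. Leaving out control cell replicate 1 or either knockdown replicate ended both 3p calls, and leaving out knockdown replicate 1 also ended that of miR-34b-5p. In knockout cells the changes of miR-34b-3p (−0.44, SE 0.29, adjusted p = 0.200) and miR-34c-3p (−0.35, SE 0.27, adjusted p = 0.265) did not pass by edgeR, though without knockout cell replicate 2 miR-34b-3p had −0.93 and passed.

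miR-449a, which carries the same seed as miR-34a-5p but is encoded in the CDC20B intron on chromosome 5, followed another pattern. It had 44 and 37 counts in control cells, 24 and 15 in knockdown cells, and 14 and 8 in knockout cells. Scaled to depth, these were 3.53 CPM ± 0.263 (SD, n = 2), 6.19 ± 1.99 and 1.10 ± 0.398, and the 3 lines did not overlap. Knockout cells held less miR-449a than control cells, by a log2 fold change of −1.33 (SE 0.39, adjusted p = 0.0055 by edgeR). They also held less than knockdown cells (−2.15, SE 0.43, adjusted p = 1.91e-04). The call against control was lost with DESeq2 (adjusted p = 0.0585) and without knockout cell replicate 2. Without knockout cell replicate 1 the values were −1.97 against control and −2.81 against knockdown cells. In knockdown cells the log2 fold change was 0.82 (SE 0.36, adjusted p = 0.0585), which passed with RLE size factors, with only the groups compared, with the GC correction and without either knockout cell library.

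The other arms of the miR-449 cluster were near the limit of detection. Of the 4 listed, miR-449c-5p alone could be tested in cells. It had 14 and 13 counts in control cells, 14 and 10 in knockdown cells and 2 and 0 in knockout cells. The ratio of pooled CPM to control was 3.23 in knockdown cells (exact binomial 95% interval 1.79 to 5.82) and 0.0848 in knockout cells (0.00977 to 0.338). The edgeR test gave log2 fold changes of 1.69 (SE 0.50, adjusted p = 0.00719) and −3.06 (SE 0.84, adjusted p = 0.00336). miR-449b-5p had 6 and 5 counts in control cells, 3 and 3 in knockdown cells and none in knockout cells. Against a limit of 3 counts over the group, knockout cells were 3.20-fold below control cells, counting error of the control cells aside. miR-449b-3p had 2 counts in all libraries and miR-449c-3p had 3 in control cell replicate 1 alone. miR-2682-5p, which shares its seed with miR-34b-5p but lies on chromosome 1, had 14 and 17 counts in control cells, none in knockdown cells and 1 and 1 in knockout cells.

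**Figure D3:**
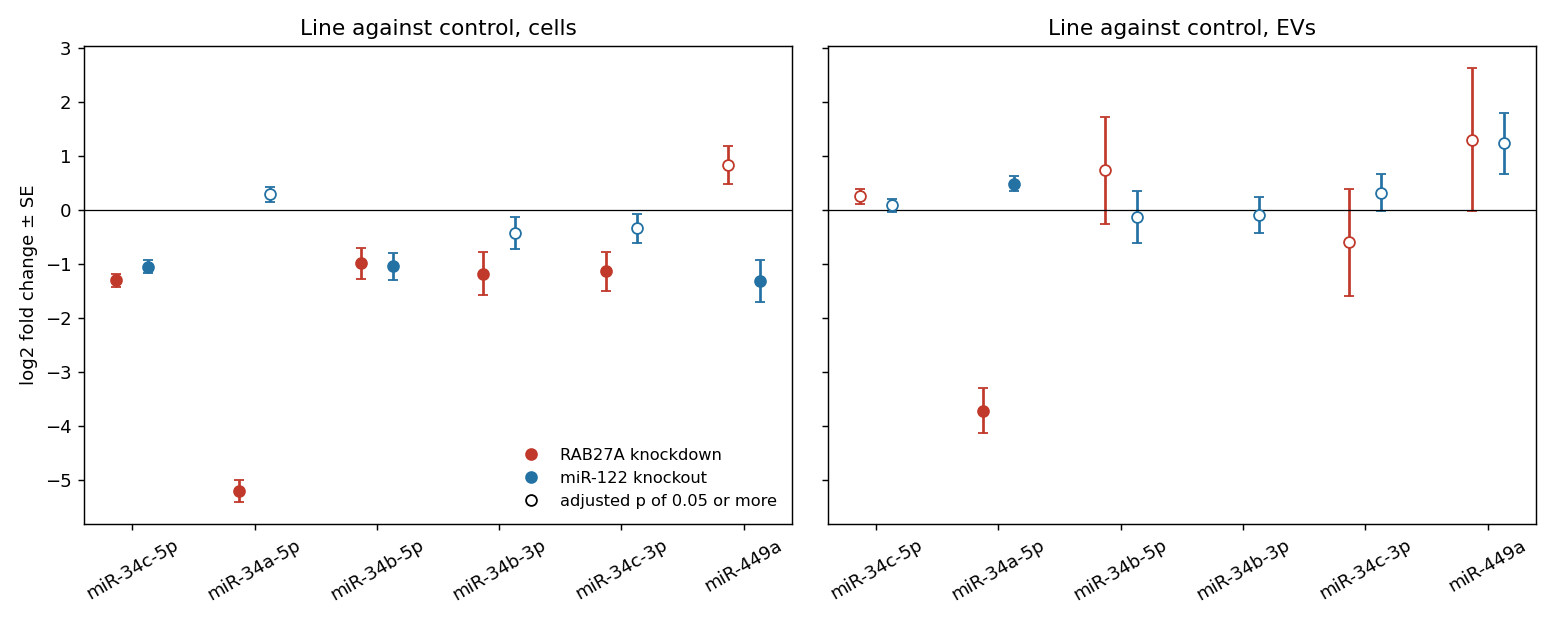
Log2 fold change of the 6 tested members in each derived line against control, in cells (left) and EVs (right). Bars are SE, filled points passed an adjusted p of 0.05 in edgeR's quasi-likelihood test, and miR-34b-3p in knockdown EVs is left out because it had no count there. In cells miR-34a-5p stands at −5.21 in the knockdown line while the arms of the miR-34b and miR-34c hairpins lie between −1.31 and −0.35 in both lines.

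Of the 7 members, 6 were tested in each comparison. miR-34a-3p had 38 counts in all, 22 of them in control cells, and was dropped by the filter on low counts everywhere. Its 12 and 10 counts in control cells stood against none in knockdown cells. Against a limit of 3 counts over the group that is 2.02-fold lower, counting error of the control cells aside. In knockdown cells 5 of the 6 tested members were lower and none higher by edgeR, with a median log2 fold change of −1.17. All of the 5 but miR-34a-5p were arms of the neighbouring miR-34b and miR-34c hairpins, so they do not stand for separate loci. Over all 613 miRNAs tested in knockdown cells, 29.5% were lower and 53.8% were called in either direction, with a median of −0.11. Without knockdown cell replicate 1 or 2 the number of miRNAs called there fell from 330 to 196 or 218. DESeq2 called 2 of the 6 members in knockdown cells, against 5 by edgeR. In knockout cells 3 of 6 were lower, with a median of −0.75, against 34.6% lower and 62.3% called over all tested and a median of −0.08. Between knockout and knockdown cells, 1 member was higher and 1 lower, where 30.7% of all tested miRNAs were higher, 33.8% lower and 64.4% called. The change of miRNAs in knockout cells followed GC content, with Spearman's rho of 0.45 over 535 miRNAs, as a description across miRNAs. The 6 members with a sequence had a GC content of 43.5% to 54.5%.

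In EVs fewer members were called. In knockdown EVs 2 of 6 were lower, with a median log2 fold change of −0.18, where 27.5% of the 488 miRNAs tested were lower and 46.3% were called, with a median of −0.29. Beside miR-34a-5p the second was miR-34b-3p, with 25 and 32 counts in control EVs and none in knockdown EVs. Against a limit of 3 counts over the group that is 1.28-fold lower, counting error of the control EVs aside. The adjusted p was 0.0421 by edgeR. The call did not hold under the GC correction (adjusted p = 0.0797) or without any single control or knockdown EV library. In knockout EVs 1 of 6, miR-34a-5p, was higher, with a median of 0.20, where 18.9% were higher and 41.2% called, with a median of 0.03. The number called there was 201, and 127 without control EV replicate 2. Between knockout and knockdown EVs, again miR-34a-5p alone was higher and no member lower, where 22.7% of miRNAs were higher, 17.6% lower and 40.4% called.

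The remaining members were too low in the knockdown EVs to be compared closely. miR-34b-5p had 0 and 4 counts there, miR-34c-3p 0 and 2, and miR-449a 2 and 0. Their ratios of pooled CPM to control EVs were 1.80 (0.464 to 5.07), 0.708 (0.0831 to 2.72) and 2.70 (0.291 to 12.4), with exact binomial 95% intervals that all included 1. In knockout EVs miR-449a had 17 and 11 counts, against 3 and 8 in control EVs. Its log2 fold change there was 1.23 (SE 0.56, adjusted p = 0.0983 by edgeR). The control EVs were also the libraries with the high blood and stromal levels given above, and the part of these miRNAs in the EV comparisons was not tested.

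When EVs were compared with the cells that released them, the 3 members lower in control EVs were all 5p arms, and 5p arms were not tested against 3p arms. In bulk libraries fewer vesicles with a miRNA and less of it in each vesicle cannot be told apart, and the same holds for cells. In the control line miR-34c-5p was lower in EVs by a log2 fold change of −1.23 (SE 0.12, adjusted p = 1.45e-12), miR-34b-5p by −0.97 (SE 0.33, adjusted p = 0.012) and miR-34a-5p by −0.55 (SE 0.15, adjusted p = 0.00118), all by edgeR. The 3p arms had positive values that did not pass, 0.57 for miR-34b-3p (SE 0.31, adjusted p = 0.123) and 0.25 for miR-34c-3p (SE 0.32, adjusted p = 0.540). Thus 3 of 6 members were lower in control EVs than in control cells, with a median of −0.68. Over the 574 miRNAs tested, 22.8% were lower and 53.7% were called, with a median of 0.02. The miR-34b-5p call was lost with total counts (adjusted p = 0.0551) and without control EV replicate 2.

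In the miR-122 KO line 3 members were higher in EVs and 1 was lower, with a median log2 fold change of 0.32, where 33.3% of miRNAs were higher, 25.8% lower and 59.1% called, with a median of 0.04. The higher ones were miR-449a (1.65, SE 0.48, adjusted p = 0.00279), miR-34c-3p (0.81, SE 0.32, adjusted p = 0.0274) and miR-34b-3p (0.79, SE 0.33, adjusted p = 0.0364) by edgeR. miR-34a-5p was lower (−0.45, SE 0.14, adjusted p = 0.0054 by edgeR). The 3p calls were lost with DESeq2 (adjusted p = 0.0806 for miR-34c-3p and 0.141 for miR-34b-3p) and without the filter on low counts. They were also lost without either knockout replicate 1 library, of cells or of EVs. That of miR-34c-3p was also lost without knockout EV replicate 2, and that of miR-34b-3p without knockdown cell replicate 1 or either knockdown EV library. RLE factors, only the groups compared and the GC correction each ended the miR-34b-3p call too. Across miRNAs, Spearman's rho of the EV to cell change with GC content was −0.37 in this line. The miR-34a-5p call was lost with total counts and with only the groups compared. It was also lost without knockout cell replicate 2 or knockout EV replicate 1, and the miR-449a call without knockout EV replicate 1. The miR-449a value was 2.24 without knockout cell replicate 1. miR-449c-5p had 2 and 0 counts in knockout cells and 6 and 3 in knockout EVs, a ratio of pooled CPM of 13.0 (exact binomial 95% interval 2.69 to 124).

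In the Rab27a KD line none of the 6 tested members passed, where 7.32% of miRNAs were higher, 12% lower and 19.3% called. By edgeR 0 members had an unadjusted p under 0.05, and DESeq2 called 0. miR-34c-5p had a log2 fold change of 0.12 (SE 0.14, adjusted p = 0.646) with TMM factors and of 0.60 with total counts (adjusted p = 0.00162). Total-count scaling moved the median of all miRNAs by 0.47 in this comparison.

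**Figure D4:**
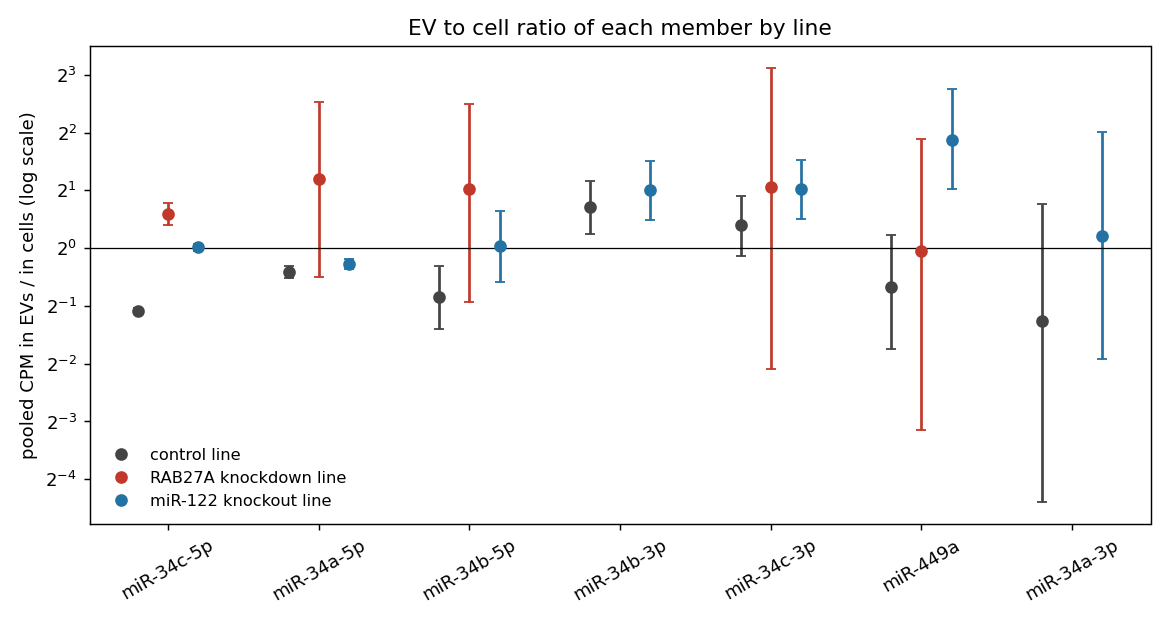
Ratio of pooled CPM in EVs to that in cells (log axis) for each member and line, with exact binomial 95% intervals for counting error; ratios with a group at 0 are left out. miR-34c-5p lies at 0.470 in the control line, 1.51 in the Rab27a KD line and 1.01 in the miR-122 KO line. These ratios use total counts, without TMM factors.

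The EV to cell difference of miR-34c-5p itself differed between lines. The ratio of pooled CPM was 0.470 in the control line (exact binomial 95% interval 0.452 to 0.487), 1.51 in the Rab27a KD line (1.33 to 1.71) and 1.01 in the miR-122 KO line (0.970 to 1.05). With TMM factors neither derived line passed by edgeR. The log2 fold changes of EVs against cells were 0.12 in the Rab27a KD line (adjusted p = 0.646) and −0.19 in the miR-122 KO line (adjusted p = 0.176). Against control, the log2 fold change of miR-34c-5p was −1.31 in knockdown cells and −1.06 in knockout cells. In knockdown and knockout EVs it was 0.24 and 0.08, and neither passed with TMM factors. The edgeR interaction was 1.35 for knockdown minus control (SE 0.19, adjusted p = 1.21e-07) and 1.04 for knockout minus control (SE 0.17, adjusted p = 1.10e-06). Both kept their sign and passed under every alternative run for them. The GC correction was not among these, because miR-34c-5p had no sequence here. Across miRNAs, Spearman's rho of the interaction with GC content was 0.13 for knockdown minus control and −0.22 for knockout minus control. For miR-449a the interaction was 2.46 in knockout minus control (SE 0.69, adjusted p = 0.00257 by edgeR), from 81 counts in control cells and 11 in control EVs against 22 and 28 in the knockout line. Leaving out each library in turn moved it from 1.97 to 3.31, the highest without control EV replicate 2, and it passed each time. Over all 574 miRNAs tested, 4.36% were higher and 18.6% called in knockdown minus control, and 24.9% were higher and 48.3% called in knockout minus control. miR-34c-5p was the only member called in the first, and it and miR-449a were the 2 called in the second. The interaction of miR-34a-5p did not pass in either, at 1.27 (SE 0.76, adjusted p = 0.269) and 0.10 (SE 0.20, adjusted p = 0.779) by edgeR, and the second passed at 0.51 without knockout cell replicate 2.

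The arms of one hairpin can be compared within a library, without any scaling. For miR-34b the 3p arm made up 39.7% and 33.9% of the arm counts in control cells and 56.8% and 69.6% in control EVs, which did not overlap. Pooled, these were 37.1% (95% exact Clopper-Pearson interval 32.5% to 41.9%) and 63.3% (52.5% to 73.2%). In the miR-122 KO line the libraries overlapped, at 39.7% and 52.9% in cells and 74.0% and 51.3% in EVs, with pooled shares of 47.7% (40.0% to 55.4%) and 64.0% (53.2% to 73.9%). In knockdown cells the share was 37.5% and 31.2%, and the knockdown EVs held only 4 counts of both arms.

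For miR-34c, whose 5p arm dominates, the 3p arm was 0.526% and 0.454% in control cells and 1.31% and 1.41% in control EVs. It was 0.639% and 0.979% in knockout cells and 1.76% and 1.44% in knockout EVs. In both lines the EV libraries lay above the cell libraries without overlap. The pooled shares were 0.490% (0.414% to 0.576%) against 1.36% (0.982% to 1.83%) in the control line and 0.807% (0.640% to 1.00%) against 1.61% (1.22% to 2.08%) in the knockout line. Knockdown cells held 0.555% and 0.539%, and in knockdown EVs 2 of 265 counts gave 0.755% (0.0915% to 2.70%). For miR-34a the 3p arm was 0.393% in control cells (0.246% to 0.594%) and 0.220% in control EVs (0.0266% to 0.791%), from 2 counts, so no difference was detectable at this depth. No test of these shares between samples was made.

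**Figure D5:**
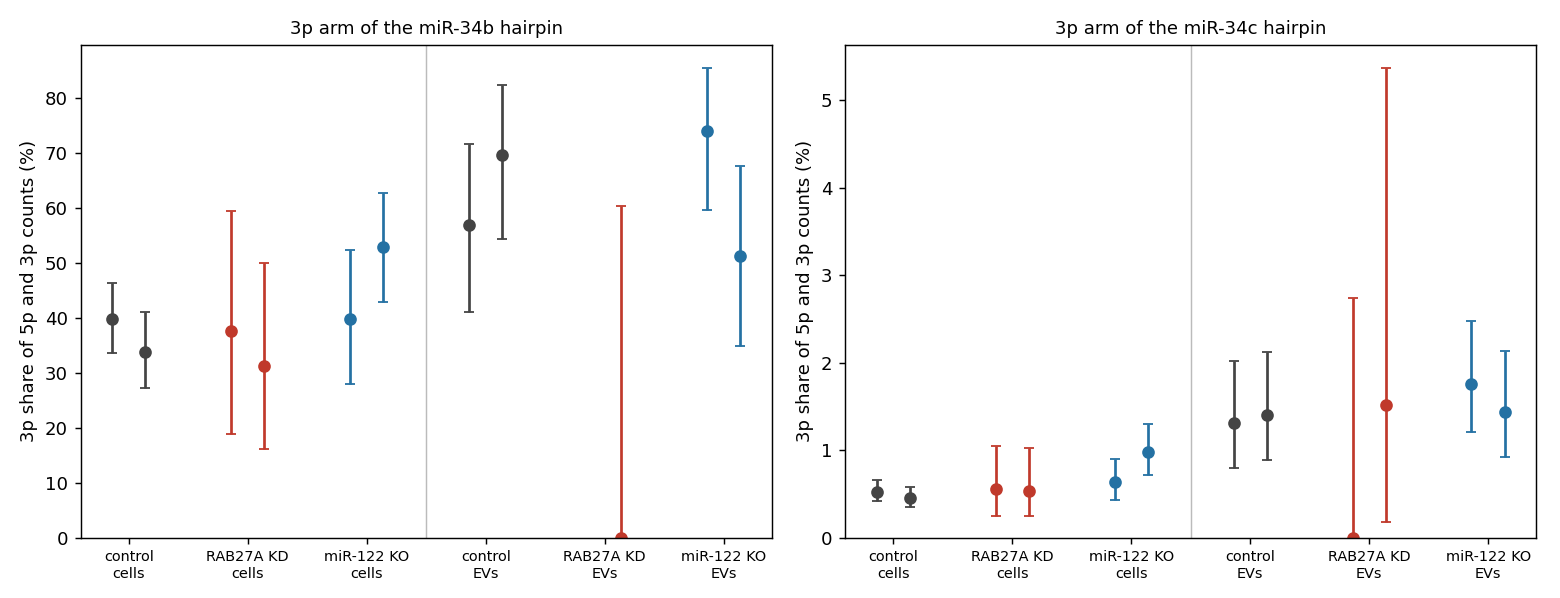
Share of the 3p arm in the 5p and 3p counts (%) of the miR-34b hairpin (left) and the miR-34c hairpin (right), by group. Points are libraries with exact Clopper-Pearson 95% intervals, and in the control line the EV libraries lie above the cell libraries for both hairpins.

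Across the 12 libraries, Pearson's r of log2(CPM + 1) between 2 members is given as a description of points that share libraries and depth. Over the 15 pairs it ran from −0.67 (miR-34b-5p with miR-449a) to 0.81 (miR-34b-5p with miR-34c-3p). The next highest were 0.69 for miR-34a-5p with miR-34b-3p and 0.53 for miR-34b-3p with miR-34c-3p. It was 0.14 between miR-34a-5p and miR-34c-5p and 0.30 between miR-34b-5p and miR-34c-5p. miR-34a-5p and miR-449a, which share a seed, had an r of −0.27. In knockdown EVs miR-34b-5p had 0 and 4 counts, miR-34c-3p 0 and 2, miR-449a 2 and 0, and miR-34b-3p none. A single count there stood for 6.07 or 5.87 CPM, so r values with these members rest partly on single reads. Of 635 other miRNAs whose summed count reached 50, the 3 most like miR-34a-5p were miR-24-1-5p (r = 0.97), miR-125b-1-3p (0.95) and miR-25-5p (0.93). miR-24-1-5p averaged 31.5 CPM in control cells, 6.19 in knockdown and 25.0 in knockout cells, and 22.0, 5.97 and 31.7 CPM in the EVs in the same order. The most like miR-34c-5p were miR-15a-5p (0.91), miR-7-5p (0.88) and miR-1296-5p (0.84). miR-15a-5p averaged 767 CPM in control, 377 in knockdown and 255 in knockout cells, and 489, 528 and 329 CPM in the EVs in the same order. The low members had their closest patterns with other low miRNAs: miR-942-3p for miR-34b-5p (0.91), miR-642a-3p for miR-34b-3p (0.97), miR-4707-5p for miR-34c-3p (0.96) and miR-188-5p for miR-449a (0.85). In knockdown EVs these 4 averaged 2.93, 0, 5.87 and 6.07 CPM in that order, no more than about a single count per library. Their r values therefore also rest partly on single reads.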

How the data were processed

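The deposited values are whole-number counts per mature miRNA in 12 libraries, without normalization. The tools named in the submitters' processing notes are cutadapt and Bowtie, versions not named, and the build is hg19. For the miRNA annotation and multiply matching reads, nothing is given in the sources used here. Per the labels' protocols, small RNAs of 17 to 52 nt were selected and ligated through a 5′ monophosphate.

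Counts were tested in R 4.3.3 by the quasi-likelihood test of edgeR 4.0.16 (with limma 3.58.1): TMM factors, filterByExpr, robust dispersions, Benjamini-Hochberg adjustment at 0.05 over all miRNAs tested. Lines were compared on the 6 libraries of a fraction (613 miRNAs in cells, 488 in EVs). EVs were compared with cells, and interactions fitted, on all 12 libraries (574 miRNAs). The SE is the size of the log2 fold change over the square root of F. The test was tried on simulated data. CPM is a count over the library total, given as mean ± SD, with 95% exact Poisson, binomial or Clopper-Pearson intervals and a limit of 3 counts for groups at 0. Alternatives were RLE factors, total counts, DESeq2 1.42.0, no filter, only the groups compared, a replicate block, a GC correction, thinned EV libraries and leaving out each library.

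The rule was to name each member in every comparison where it was tested. The text names every member that passed in a comparison, and those that did not pass only in part. For each member with at least 50 counts, the rule also names the 3 miRNAs with the closest pattern; the text names all 3 for miR-34a-5p and miR-34c-5p and the closest for the others. A further list of miRNAs is not reported here. Members and lists were chosen with earlier results of these data known. Replicates differed by more than counting noise in every group, so each library counted as 1. The chi-square between replicates, over its degrees of freedom, was 211 in knockout cells and 8.75 to 31.8 in the other groups. Intervals from pooled counts do not cover this spread. Same-numbered libraries did not deviate together (r from −0.07 to 0.07 over 15 pairs of groups), so the numbers were not used to pair them.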

Additional observations from a re-analysis of the deposited data

Results flagged for a closer look

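For miR-34c-5p the EV to cell difference differed between lines by a test of that difference: the interaction was 1.35 for the Rab27a KD line minus the control line and 1.04 for the miR-122 KO line minus the control line (log2 scale, edgeR). For miR-449a the same difference was 2.46 for the miR-122 KO line minus the control line, from 1.97 to 3.31 with each library left out in turn and highest without control EV replicate 2. All 3 share the control libraries. Against the control line, miR-34c-5p was lower in the cells of both derived lines, at −1.31 (Rab27a KD) and −1.06 (miR-122 KO). In EVs its changes, 0.24 and 0.08 in the same order, did not pass with TMM factors. Depth differed between the groups, with 164656 and 170366 total counts in the knockdown EVs, and the blood and stromal miRNAs were high in control EVs; the part of either was not tested.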

How the results depend on the processing

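A member's change was compared with its value under another setting 453 times, libraries left out aside. Of these, 418 kept their side of the threshold and, where called, their direction. So did 540 of 576 that left out a library. Changes that passed in neither setting were counted as kept even where the sign changed. The GC correction was not run for miR-34c-5p. The values below are log2 fold changes by edgeR unless DESeq2 is named, and the cause of each move was not tested. No call of miR-34a-5p or miR-34c-5p in knockdown cells, nor of miR-34c-5p in knockout cells, was lost.

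With total counts the knockout EV change of miR-34c-5p reversed to −0.30, and that of miR-34a-5p was 0.11. miR-34c-5p then passed at 0.36 in knockdown EVs, −0.66 in knockout against knockdown EVs and 0.60 for EVs against cells of the Rab27a KD line. miR-34b-5p in control EVs against cells (−0.83) and miR-34a-5p in knockout EVs against cells (−0.26) no longer passed. Total counts moved the median of all miRNAs by up to −0.49 and 0.47. They lowered the share of higher calls from 44.5% to 32.4% in knockout cells, from 47.6% to 36.9% in knockout against knockdown cells, from 45.8% to 19.2% in knockout EVs and from 56.3% to 35.3% in knockout against knockdown EVs. They raised it from 37.8% to 75.6% for EVs against cells of the Rab27a KD line and from 23.4% to 52.6% in the knockdown interaction. The GC correction moved it from 40.7% to 58.1% in knockdown EVs, from 56.3% to 37.6% in knockout against knockdown EVs, from 37.8% to 61.4% for EVs against cells of the Rab27a KD line and from 23.4% to 56.2% in its interaction.

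With RLE factors, miR-449a in knockdown cells (0.95), miR-34a-5p in knockout cells (0.38) and miR-34c-5p in knockout EVs against cells (−0.30) passed, and miR-34b-3p in the last (0.70) did not. With DESeq2, miR-34b-5p (−0.87), miR-34b-3p (−1.06) and miR-34c-3p (−1.02) in knockdown cells, miR-449a in knockout cells (−1.23), miR-34a-5p in knockout EVs (0.38), and miR-34b-3p (0.70) and miR-34c-3p (0.71) in knockout EVs against cells did not pass. miR-34a-5p in knockout cells (0.38) and miR-34c-5p in knockout EVs against cells (−0.30) did. Without the filter, miR-34c-5p passed in knockout against knockdown cells (0.36) and in knockout EVs against cells (−0.57), where miR-34b-3p (0.44) and miR-34c-3p (0.45) did not. miR-34b-3p then passed in knockout against knockdown EVs (7.24), where knockdown EVs had no count and the value is no bound. With only the groups compared, miR-449a in knockdown cells (0.85) and miR-34c-5p in knockdown EVs (0.36) passed, and miR-34a-5p (−0.39) and miR-34b-3p (0.87) in knockout EVs against cells did not. With the GC correction, miR-449a in knockdown cells (0.91) passed, and miR-34b-3p in knockdown EVs (−7.34, again no bound) and in knockout EVs against cells (0.50) did not.

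Thinning the EV libraries to 164656 counts left 148, 75 and 125 miRNAs called in knockdown, knockout, and knockout against knockdown EVs, from 226, 201 and 197. Of the member changes still tested at that depth, 4 kept their call, miR-34c-5p in knockdown EVs passed (0.46) and miR-34a-5p in knockout EVs did not (0.50). The other member changes in EVs were not tested at that depth. On TMM effective library sizes the summed level of the 7 members was 573 CPM in knockdown cells, 930 in knockout cells, 753 in control EVs, 625 in knockdown EVs and 785 in knockout EVs.

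With the replicate number as a block, 65 of 66 member changes kept their call. miR-34b-3p in knockdown EVs, which had no count there, lost it (−7.36, no bound, adjusted p = 0.0693 by edgeR). The numbers did not pair the libraries.

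Leaving out each library in turn gave these ranges where a call changed. In knockdown cells 196 to 385 miRNAs were called, and the changes were −1.27 to −0.74 for miR-34b-5p, −1.34 to −0.95 for miR-34b-3p, −1.17 to −1.07 for miR-34c-3p and 0.45 to 1.14 for miR-449a. In knockout cells they were 0.10 to 0.35 for miR-34a-5p, −0.93 to −0.18 for miR-34b-3p and −1.97 to −0.89 for miR-449a. In knockout against knockdown cells they were 0.26 to 0.98 for miR-34b-3p and 0.019 to 0.36 for miR-34c-5p. In EVs miR-34b-3p ran from −7.69 to −7.17 in knockdown and from 6.68 to 7.47 in knockout against knockdown. Knockdown EVs had no count of it, so these values are no bound. In knockout EVs miR-34a-5p ran from 0.26 to 0.57, and 127 to 205 miRNAs were called. For EVs against cells, miR-34b-5p ran from −1.20 to −0.72 in the control line. In the knockout line miR-34a-5p ran from −0.56 to −0.22, miR-34b-3p from 0.51 to 1.31, miR-34c-3p from 0.69 to 1.04 and miR-449a from 1.23 to 2.24. The knockout interaction of miR-34a-5p ran from −0.025 to 0.51. The 3p share ran over 0.0716% to 0.413% (knockout cells), 0% to 0.457% (control EVs) and 0% to 0.579% (knockout EVs) for miR-34a. It ran over 39.7% to 52.9% (knockout cells) and 51.3% to 74.0% (knockout EVs) for miR-34b, and 0.639% to 0.979% (knockout cells) and 0% to 1.52% (knockdown EVs) for miR-34c. The knockdown EVs limit most what can be seen: 3 counts over that group are 8.95 CPM.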
